A study of Mus musculus with 10 samples.

Results

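The collagen genes of the mouse kidney were compared between calorie-restricted and control-fed animals in old age. They were taken as all probe sets whose array annotation gives a single gene symbol made of Col, a number, the letter a and a number. That rule found 42 genes with 82 probe sets, of 18193 genes with a single symbol and 45101 probe sets on the array. A probe set is a group of short probes that together read a transcript. By type, 11 of the genes encode chains of fibrillar collagens, 6 encode type IV chains of basement membranes and 25 encode chains of other types.

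The kidneys came from male C57BL/6 mice aged 30 months, 5 on a calorie-restricted diet and 5 on a control diet, with 1 mouse per Affymetrix Mouse Genome 430 2.0 array. How strongly and how long intake was restricted is not given in the sources used here. Whole kidney was measured, so fewer cells of a type and less RNA per cell cannot be told apart.

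Collagens are the main structural proteins of the extracellular matrix, and each molecule is a triple helix of chains that can come from different genes. Fibrillar collagens, above all types I, III and V, form the interstitial fibres that accumulate when a kidney scars. Type IV collagen forms the sheet-like network under tubules, vessels and the glomerular filter, and its chain composition differs between these sites. The remaining types decorate fibrils, form beaded filaments or short-chain networks, anchor epithelia or span the cell membrane. Chains are hydroxylated and folded in the endoplasmic reticulum, trimmed outside the cell and cross-linked by lysyl oxidases.

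All 5 kidney markers found on the array with a single symbol passed the filter described next, and the androgen-dependent tubule gene Kap averaged 36674 in calorie-restricted and 22040 in control kidney, a log2 difference of 0.74 that was 0.40 after quantile normalization. RNA quality was read from control probe sets at both ends of the Gapdh and Actb transcripts, as the log2 ratio of 3' over 5' signal. This ratio lay between 1.16 and 2.21 on the calorie-restricted arrays and between 0.76 and 1.39 on the control arrays. It averaged 1.67 ± 0.46 in calorie-restricted and 1.05 ± 0.26 in control kidney (SD, n = 5 each), and a 2-sided exact permutation test gave p = 0.0476, where the smallest p this design allows is 0.00794. Replicates 1 to 3 of each diet made up most of that gap, while replicates 4 and 5 of both diets lay between 1.16 and 1.39. Whether it is a cause of any difference was not tested. Values with the ratio as a covariate, and from replicates 4 and 5 alone, stand beside some of the results, and not beside every result they move.

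Values are MAS5 signals, which are linear intensities. A gene was read by its brightest probe set and tested if that probe set's mean log2 signal over all 10 arrays reached 6.81, the median of the array. The filter kept 27 of the 42 collagen genes. Differences below are on the log2 scale, taken as calorie restricted minus control, with limma's standard error (SE) and its Benjamini-Hochberg adjusted p over all 22519 tested probe sets, called at 0.05.

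In calorie-restricted kidney Col8a1 and Col14a1 fell, no collagen gene rose, and 25 of the 27 tested did not pass. The 2 calls stand against a background of 6.10% of all 12196 tested genes, 3.02% lower and 3.08% higher in calorie restriction. A share of 2 in 27 is near that background. Signals were lower on average in calorie restriction for 21 of the 27 genes, against 50.8% of all genes, and after quantile normalization for 19, against 48.8%. The median difference was -0.12 over the collagen genes and -0.0052 over all tested genes. By type, the medians were -0.12 for the 7 fibrillar genes tested, -0.16 for the 6 type IV genes and -0.10 for the 14 others. At an unadjusted p under 0.05, 7 collagen genes were lower and 1 was higher, where 13.8% of all genes were lower, 12.6% higher and 26.4% either. The groups did not overlap for 1 collagen gene, against 7.49% of all genes.

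**Figure D1:**
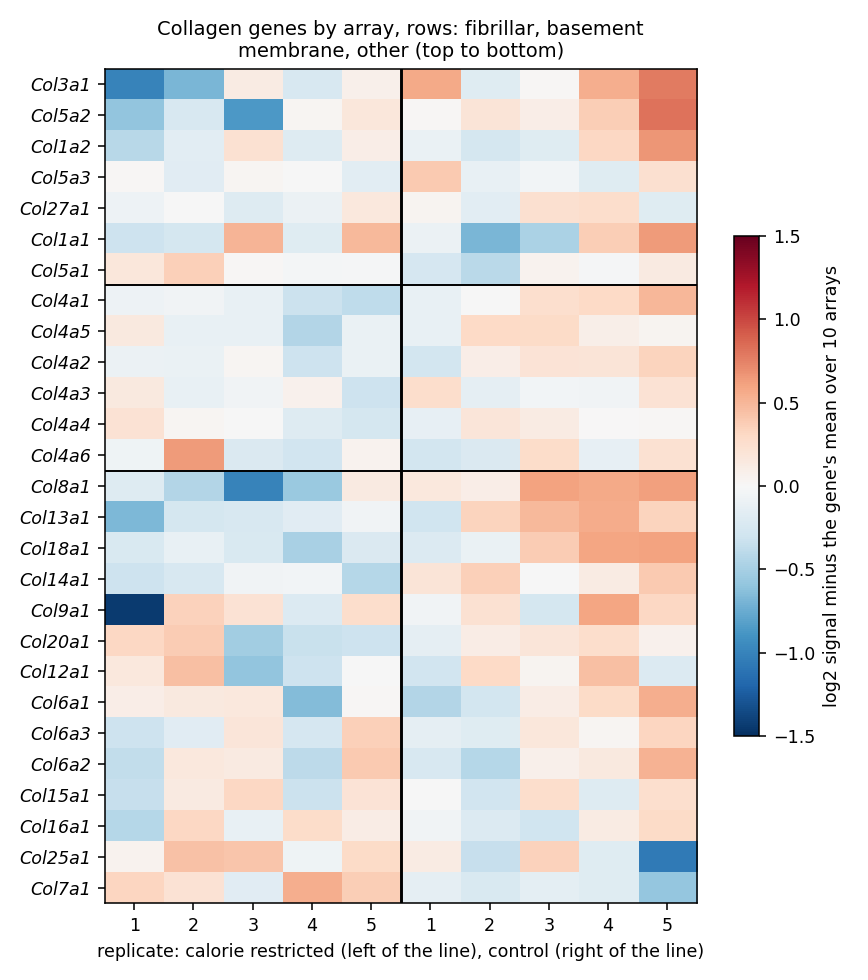
Log2 signal of the 27 tested collagen genes (rows, grouped by type) on each of the 10 arrays (columns, calorie-restricted first, then control), relative to the mean of the gene over all arrays. Control replicate 5 was the highest of all 10 arrays for 11 of the 27 genes, and calorie-restricted replicate 1 was the lowest for 7.

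Col8a1 encodes a chain of type VIII collagen, a short-chain network collagen of vessel walls and some basement membranes. The gene lies on chromosome 16 from 57624256 to 57754737 in GRCm38.p6. Its signals were 259.6, 218, 148, 203 and 327 on the calorie-restricted arrays, against 333, 318, 452, 442 and 456 on the control arrays. Calorie-restricted replicate 5 lay above control replicate 2, and the other 4 calorie-restricted arrays lay below every control array. The mean was 231 ± 66.7 in calorie-restricted and 400.4 ± 68.6 in control kidney (SD, n = 5 each), a difference of -0.82 (SE 0.20, adjusted p = 0.0335). The gene's other tested probe set showed 0.031 (95% interval -0.36 to 0.42), so the fall was read by 1 of the 2 tested. Another Col8a1 probe set lay below the filter and went the other way. It averaged 45.5 in calorie-restricted and 15.4 in control kidney, a difference of 2.04 that did not pass with no filter.

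Col14a1 encodes a collagen that binds to the surface of type I fibrils. It lies on chromosome 15 from 55307644 to 55520803. Signals were 849.5, 895, 1019, 1031 and 789 on the calorie-restricted arrays, against 1212, 1354, 1051, 1151 and 1389.6 on the control arrays. Every calorie-restricted array lay below every control array. The difference was -0.43 (SE 0.12, adjusted p = 0.0471), while the second tested probe set of the gene showed 0.16 (95% interval -0.13 to 0.44). Neither call held in every fit that left out 1 array, while both differences stayed below 0 in all of them. They ranged from -0.96 to -0.68 for Col8a1 and from -0.48 to -0.37 for Col14a1. The number of probe sets passing over the whole array also changed between these fits and is given in the closing section. With 1 array left out at a time, Col8a1 passed in 3 of 10 fits, those without calorie-restricted replicate 4, calorie-restricted replicate 5 or control replicate 1, with adjusted p of 0.0122 to 0.0757 over the 10. Col14a1 passed in 1 of 10, that without calorie-restricted replicate 4, with 0.0346 to 0.109. With the RNA ratio as a covariate the differences were -0.85 for Col8a1 and -0.41 for Col14a1, and 0 collagen genes passed the threshold. In that fit 9 of the 22519 probe sets passed, against 1371 without the covariate.

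Promoter windows from RefSeq (GRCm38.p6) were found for 33 of the 42 genes, all but Col12a1, Col14a1, Col1a1, Col22a1, Col26a1, Col2a1, Col4a3, Col5a2 and Col9a3. The 4 shown are those of Col8a1, the called gene with an entry, of Col3a1 and Col1a2, chains of the main interstitial fibres, and of Col7a1, the gene with the largest positive difference among the 27 tested. Each is the 250 bases before the annotated start, written 5′ to 3′ on the gene's own strand, and capitals mark the motifs, which were searched on both strands. They were TATAAA, the core of the TATA box, then CCAAT, bound by the factor NF-Y, then GGGCGG, the core of the GC box, and lastly TGANTCA, which is the AP-1 site.
Col8a1 (chr16:57754738-57754987, minus strand): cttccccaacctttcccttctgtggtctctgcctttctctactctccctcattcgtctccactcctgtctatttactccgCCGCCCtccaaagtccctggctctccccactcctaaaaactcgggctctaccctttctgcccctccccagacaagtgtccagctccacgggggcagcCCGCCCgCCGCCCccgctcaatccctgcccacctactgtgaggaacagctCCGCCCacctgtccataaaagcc
Col3a1 (chr1:45311288-45311537, plus strand): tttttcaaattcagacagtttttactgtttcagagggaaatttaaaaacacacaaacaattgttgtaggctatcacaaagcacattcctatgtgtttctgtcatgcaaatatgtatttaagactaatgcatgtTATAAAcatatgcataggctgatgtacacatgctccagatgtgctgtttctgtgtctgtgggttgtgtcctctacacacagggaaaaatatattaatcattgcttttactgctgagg
Col1a2 (chr6:4505368-4505617, plus strand): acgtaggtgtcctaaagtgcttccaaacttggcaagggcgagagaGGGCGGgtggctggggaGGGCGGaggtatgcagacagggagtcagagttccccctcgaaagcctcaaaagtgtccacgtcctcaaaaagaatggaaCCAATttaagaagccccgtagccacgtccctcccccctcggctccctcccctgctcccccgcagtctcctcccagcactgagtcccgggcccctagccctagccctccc
Col7a1 (chr9:108953336-108953585, plus strand): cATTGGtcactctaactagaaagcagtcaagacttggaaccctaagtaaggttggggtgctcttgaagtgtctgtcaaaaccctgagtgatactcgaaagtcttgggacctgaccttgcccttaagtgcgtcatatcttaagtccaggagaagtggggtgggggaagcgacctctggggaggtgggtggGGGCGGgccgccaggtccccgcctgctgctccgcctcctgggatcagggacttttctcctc
The Col8a1 window held GGGCGG 4 times, each time as its reverse complement CCGCCC, at 170, 73, 66 and 23 bases before the start. The Col3a1 window held 1 TATAAA, 117 bases before the start. The Col1a2 window held GGGCGG at 205 and 188 bases and CCAAT at 109 bases before the start, and the Col7a1 window held CCAAT, as its reverse complement ATTGG, at 249 bases and GGGCGG at 61 bases. Of 32851 windows of this length in the table, 12.4% held TATAAA, 33.8% CCAAT, 32.7% GGGCGG and 6.75% TGANTCA. Of the 36 windows of the collagen genes, 5 held TATAAA, 13 CCAAT, 21 GGGCGG and 1 TGANTCA. A match is a run of letters and was not tested as a site of any factor.

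None of the 7 tested fibrillar genes passed the threshold. Col3a1, the chain of type III collagen that accompanies type I in stroma and vessels, had signals of 721, 901, 1573, 1231 and 1533 on the calorie-restricted arrays, against 2139.8, 1277, 1469, 2111 and 2495 on the control arrays. Calorie-restricted replicates 1, 2 and 4 lay below every control array, and calorie-restricted replicates 3 and 5 lay within the control range. The difference was -0.69 (95% interval -1.18 to -0.20, adjusted p = 0.0815), and the second probe set of the gene gave -0.72. Col5a2, a chain of type V collagen, which sets the diameter of fibrils, differed by -0.60 (95% interval -1.04 to -0.16, adjusted p = 0.089). Its gene lies 24624 bases from Col3a1 on chromosome 1. With the RNA ratio as a covariate the differences were -0.48 for Col3a1 and -0.41 for Col5a2. From replicates 4 and 5 alone they were -0.74 for Col3a1 and -0.49 for Col5a2. Without calorie-restricted replicate 5 both of them passed the threshold, with adjusted p of 0.0454 for Col3a1 and 0.0407 for Col5a2. Of the fits with 1 array left out, it was the only one in which either passed. It was also the one with the most probe sets passing over the whole array.

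Col1a1 and Col1a2 encode the chains of type I collagen. Col1a1 signals were 358, 368, 632, 389.9 and 620.3 on the calorie-restricted arrays, against 417, 275, 318, 569.7 and 689 on the control arrays. They overlapped throughout, with a difference of 0.098 (95% interval -0.44 to 0.64), and the second Col1a1 probe set gave 0.22. With the RNA ratio as a covariate the brightest Col1a1 probe set gave 0.024 and the second -0.69. From replicates 4 and 5 alone the brightest gave -0.35 and the second -0.97. None of these Col1a1 values passed the threshold. Col1a2 differed by -0.17 (95% interval -0.54 to 0.20) by its brightest probe set. A dimmer Col1a2 probe set had 300.4, 396, 415, 359.8 and 534 on the calorie-restricted arrays, against 487, 664, 607, 805 and 730.1 on the control arrays, a difference of -0.72 (adjusted p = 0.0302) that passed the threshold by itself. The difference between these Col1a2 probe sets did not pass (adjusted p = 0.0751). In that probe set calorie-restricted replicate 5 lay above control replicate 1, and the other 4 calorie-restricted arrays lay below every control array. The remaining fibrillar chains differed by 0.19 for Col5a1, -0.12 for Col5a3 and -0.079 for Col27a1, which encodes a cartilage-associated fibrillar chain. Second probe sets gave -0.15 for Col5a1 and -0.43 for Col27a1. The second Col27a1 value had a 95% interval of -0.70 to -0.16 (adjusted p = 0.0558). Of the fits with 1 array left out, it passed the threshold only in that without calorie-restricted replicate 5 (adjusted p = 0.0278). Its difference from the brightest probe set did not pass (adjusted p = 0.0740). In replicates 4 and 5 alone all 7 tested fibrillar genes were lower in calorie restriction, with a median of -0.35, where 51.5% of all genes were lower. That fit used only 4 arrays, and none of the 7 genes passed the threshold in it. Their differences ran from -0.74 for Col3a1 to -0.083 for Col5a1 and -0.0049 for Col27a1. Control replicates 4 and 5 were also the highest of all arrays in the mean over these genes. Relative to each gene's mean over all arrays, the 7 genes averaged 0.24 and 0.44 there, against -0.23 to 0.082 on the other control arrays. This did not hold for every gene, and Col5a1 was highest on calorie-restricted replicate 2.

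**Figure D2:**
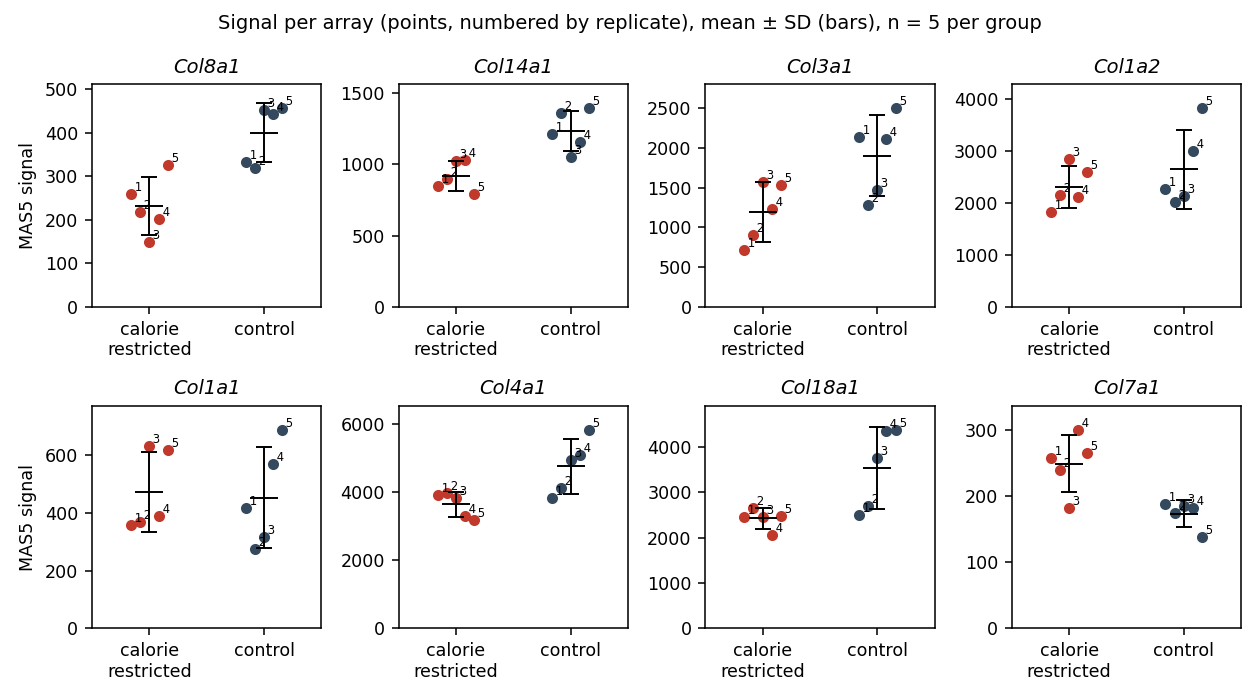
MAS5 signal (linear axis from 0) of 8 collagen genes on each array, calorie-restricted left of control, with points numbered by replicate and bars at the group mean ± SD (n = 5 each). Col14a1 is the one panel without overlap between the diets; Col1a1 overlaps throughout.

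The type IV genes are arranged in pairs on their chromosomes, and none of the 6 passed the threshold. Col4a1, which with Col4a2 makes the network found in nearly all basement membranes, had 3908, 3989, 3817, 3303 and 3173 on the calorie-restricted arrays, against 3827, 4112, 4933, 5091 and 5837 on the control arrays. Calorie-restricted replicates 4 and 5 were the lowest of all arrays, and control replicates 3 to 5 were the highest. The difference was -0.38 (SE 0.12, adjusted p = 0.0711) and the second probe set gave -0.40. Col4a2, whose annotation overlaps that of Col4a1 by 85 bases on chromosome 8, differed by -0.22 (95% interval -0.47 to 0.028, adjusted p = 0.243). With the RNA ratio as a covariate the differences were -0.63 for Col4a1 and -0.35 for Col4a2, and from replicates 4 and 5 alone -0.75 and -0.46. Col4a1 passed the threshold in those 4 arrays, with an adjusted p of 0.0313, and also without control replicate 1 (adjusted p = 0.0390).

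Col4a3, Col4a4 and Col4a5 encode the chains of the mature glomerular basement membrane, and loss of any of them causes Alport syndrome. By their brightest probe sets they differed by -0.11, -0.087 and -0.25, with 95% intervals of -0.36 to 0.15, -0.31 to 0.14 and -0.52 to 0.026. The second Col4a3 probe set showed 422, 413, 397, 681 and 703 on the calorie-restricted arrays, against 1007, 1123, 1135, 565 and 743 on the control arrays, and its difference of -0.80 passed the threshold (adjusted p = 0.0483). In this probe set calorie-restricted replicates 1 to 3 were the lowest and control replicates 1 to 3 the highest of all arrays, and the same arrays lay at the ends of the RNA ratio. Within replicates 4 and 5 the difference was 0.094, and with the covariate it was -0.18. Col4a6, a chain of Bowman's capsule and some tubular membranes, differed by 0.048 (95% interval -0.40 to 0.50). Of 9 tested podocyte markers, Wt1 and Cd2ap fell, where 3.02% of all tested genes were called lower. Cd2ap did not pass after quantile normalization (adjusted p = 0.0566), and with the covariate 0 of the 9 passed. In the covariate fit few of the 22519 probe sets passed over the whole array, as given above. The list median was -0.35, and the summed signal was 8080 to 9598 on the calorie-restricted and 9099 to 12275 on the control arrays. The part of podocyte number in these values was not tested.

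Among the 14 tested genes of other types, Col8a1 and Col14a1 were the calls. Col18a1, whose C-terminal fragment is endostatin and which lies in vascular and epithelial basement membranes, had 2459, 2660.2, 2461, 2054 and 2473 on the calorie-restricted arrays, against 2498, 2688, 3763, 4345 and 4379 on the control arrays. Control replicates 3 to 5 were the highest of all arrays, control replicate 1 lay within the calorie-restricted range and control replicate 2 just above it. The difference was -0.51 (95% interval -0.85 to -0.18, adjusted p = 0.0632), and the second probe set gave -0.43. In replicates 4 and 5 alone Col18a1 differed by -0.95 and passed the threshold (adjusted p = 0.0223), and it also passed without control replicate 1 (adjusted p = 0.0252). With the RNA ratio as a covariate Col18a1 differed by -0.78 and did not pass. Col15a1, the related multiplexin, differed by -0.0095 (95% interval -0.36 to 0.34).

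Col7a1, the chain of the anchoring fibrils of skin, had the largest positive difference among the 27 tested genes. Its signals were 258, 239, 183, 301 and 266 on the calorie-restricted arrays, against 188, 175, 186, 182 and 138 on the control arrays. The calorie-restricted arrays were higher on average, with a difference of 0.51 (95% interval 0.15 to 0.88, adjusted p = 0.0814), which did not pass. Col13a1, a transmembrane collagen of cell adhesions, differed by -0.56 (adjusted p = 0.111). Col25a1, a transmembrane collagen of neurons, differed by 0.45 (95% interval -0.068 to 0.97). The beaded-filament chains of type VI differed by -0.091 for Col6a1, -0.029 for Col6a2 and -0.083 for Col6a3 over all 10 arrays. The 95% interval for Col6a1 was -0.51 to 0.33. With the RNA ratio as a covariate these 3 differences were -0.49, -0.11 and 0.0031. From replicates 4 and 5 alone they were -0.73 for Col6a1, -0.33 for Col6a2 and -0.13 for Col6a3. The fibril-associated genes differed by -0.12 for Col12a1, 0.06 for Col16a1, -0.19 for Col20a1 and -0.33 for Col9a1. Second tested probe sets gave 0.28 for Col12a1 and 0.053 for Col20a1. With the RNA ratio as a covariate the brightest probe sets gave -0.33 for Col12a1, 0.13 for Col16a1, -0.54 for Col20a1 and -0.079 for Col9a1.

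**Figure D3:**
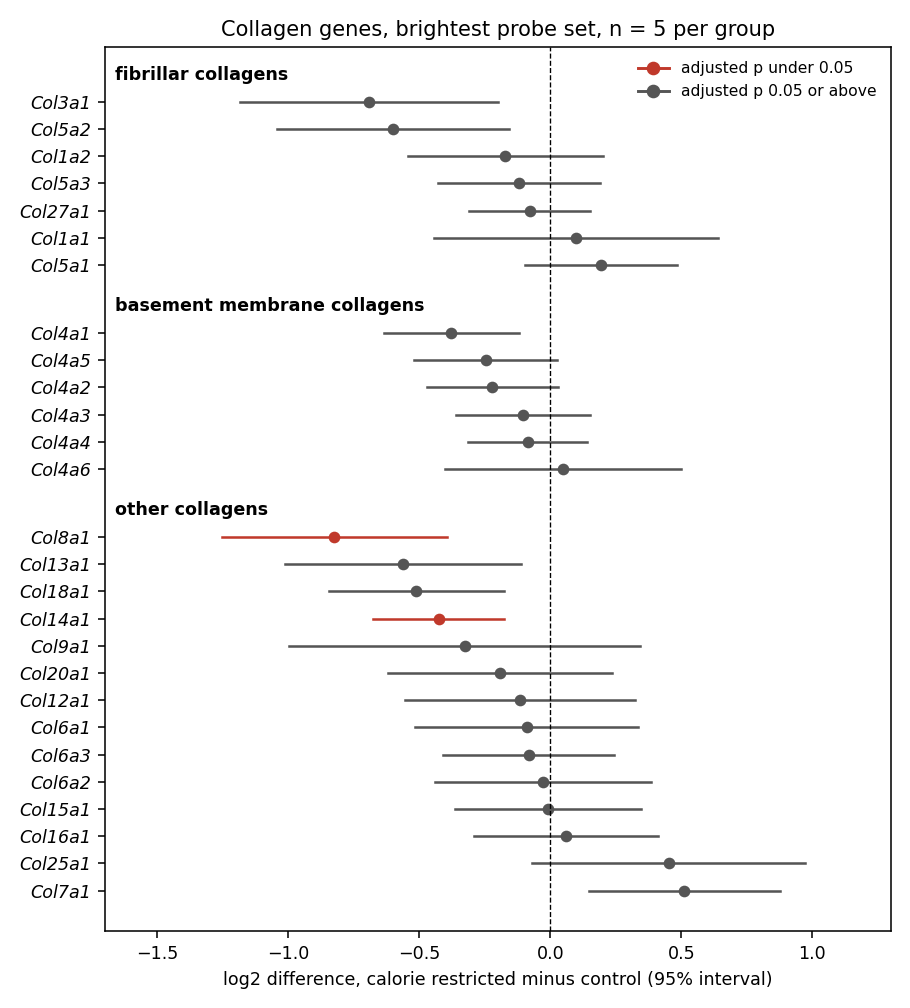
Log2 difference, calorie restricted minus control, of the 27 tested collagen genes with its 95% interval from limma (n = 5 each), by type. Red points and lines mark the 2 genes past the threshold, Col8a1 and Col14a1, both below 0.

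The 15 collagen genes below the filter were Col10a1, Col11a1, Col11a2, Col17a1, Col19a1, Col22a1, Col23a1, Col24a1, Col26a1, Col2a1, Col6a4, Col6a5, Col8a2, Col9a2 and Col9a3. Their brightest probe sets averaged 7.31 to 117 in calorie-restricted and 5.15 to 108 in control kidney. With no filter, none of the 42 genes passed limma's adjusted threshold.

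Of the 82 collagen probe sets 43 were tested and 4 passed, against 6.09% of all tested probe sets: the brightest ones of Col8a1 and Col14a1 and the dimmer ones of Col1a2 and Col4a3. For 15 collagen genes a second tested probe set was available. The brightest and the second probe set differed in sign for 5 of the 15, against 40.2% of all 4987 genes with 2 tested probe sets. Tested within each array, the difference between the 2 probe sets passed for 0 of the 15 (limma, Benjamini-Hochberg adjusted), against 1.26% of all genes, and had an unadjusted p under 0.05 for 5 of them, against 25.2%. The smallest adjusted p, 0.0533, was that of Col14a1. This comparison was added after the data were seen.

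**Figure D4:**
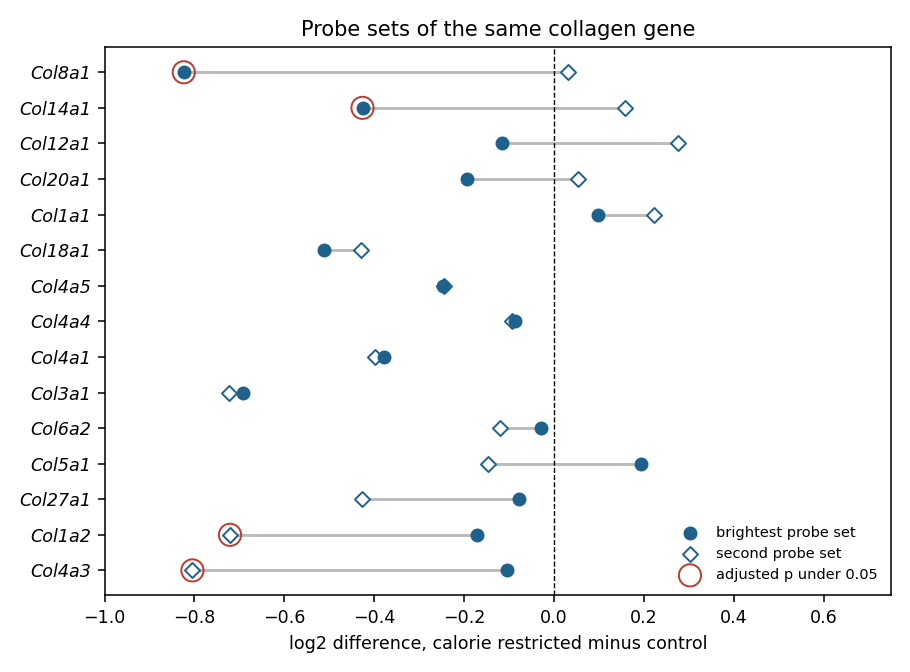
Log2 difference, calorie restricted minus control, of the brightest and the second tested probe set of 15 collagen genes (filled circle and open diamond), joined by a line, with a ring around the 4 probe sets past the threshold. The pairs lie close together for Col3a1, Col4a1 and Col18a1, and apart for Col8a1, Col14a1, Col1a2, Col4a3, Col12a1, Col27a1 and Col5a1.

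The enzymes and chaperones of collagen synthesis had 4 calls among 25 tested genes, against the 6.10% of all tested genes. Lox and Loxl1, which oxidise lysines so that fibres cross-link, fell by 0.93 (adjusted p = 0.0217) and 0.56 (adjusted p = 0.0218). Lox signals were 153, 173, 151, 167 and 208 on the calorie-restricted arrays, against 233, 284, 294, 359.9 and 494 on the control arrays. Plod2, a lysyl hydroxylase that prepares those lysines, fell by 0.55 (adjusted p = 0.0265), and Ppib, a prolyl isomerase that aids helix folding, rose by 0.37 (adjusted p = 0.0499). After quantile normalization Ppib differed by 0.20 (adjusted p = 0.219), and in replicates 4 and 5 alone by 0.16. The median of the list was -0.017. The collagen chaperone Serpinh1 differed by 0.25 and the prolyl hydroxylase chain P4ha1 by -0.34, neither past the threshold.

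Of 8 collagen receptors tested, Itgb1, the shared chain of the collagen-binding integrins, fell by 0.68 (adjusted p = 0.0276), and the list median was -0.18. Itgb1 differed by -0.24 in replicates 4 and 5 alone and by -0.31 with the covariate. Of 20 basement membrane partners, Npnt, an integrin ligand of the developing kidney, fell by 0.91 (adjusted p = 0.0138). Npnt signals were 987, 1139, 1166, 1431 and 1572 on the calorie-restricted arrays, against 1952, 2068, 2355, 2346 and 3114 on the control arrays. Hspg2, the core protein of perlecan, differed by 0.44 (adjusted p = 0.0595) without passing, and Nid1, which links laminin to type IV collagen, by -0.38 (adjusted p = 0.0652). The degradation list held enzymes and also the Timp inhibitors. Of its 11 tested genes, Mmp14, a membrane-bound collagenase, fell by 0.70 (adjusted p = 0.0303). With the RNA ratio as a covariate, none of the calls in these 4 lists remained. Few probe sets of the whole array passed in that fit, as given above. The receptor, partner and degradation lists had 1 call each, and the share over all tested genes is again 6.10%.

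Markers of the cells that make collagen, and of other kidney cells, were read from the same arrays, where 3.02% of all tested genes were called lower and 3.08% higher. Of 10 tested fibroblast and stroma markers 2 fell, Pdgfra by 0.95 (adjusted p = 0.0168) and Lum by 1.17 (adjusted p = 0.0202), and the median was -0.27. The summed signal of the list was 8394 to 9986 on the calorie-restricted arrays and 9485 to 14324 on the control arrays, and none of its markers was at the floor on all arrays. None of 7 tested smooth muscle and mesangium markers passed (median -0.13, 4 of 7 below 0), Tagln differing by -0.32 (adjusted p = 0.262). None of 12 endothelial markers passed (median -0.15), with Pecam1 at -0.60 (adjusted p = 0.0704) and Emcn at -0.65 (adjusted p = 0.0935). Of these 12 markers 8 were below 0 and the others were not, where 50.8% of all tested genes were below 0. Macrophage markers fell for 4 of 9 tested (median -0.63), among them Mpeg1 by 1.02 and Mrc1 by 0.87, with 3 of 9 after quantile normalization. Adipocyte markers fell for 2 of 5 (median -0.77), Fabp4 by 0.77 and Cidea by 1.10, with 1 of 5 after quantile normalization, while 7 of 12 proximal tubule markers rose (median 0.38). After quantile normalization 2 proximal tubule markers passed, with a median of 0.088. Fewer probe sets also passed over the whole array after quantile normalization, as given in the closing section. With the RNA ratio as a covariate 0 markers of any of these lists passed, in a fit where few probe sets of the whole array did. The part of these markers in the collagen values was not tested.

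Per array, the mean of the 27 collagen genes, each set to its own mean over all arrays, was -0.20, 0.018, -0.079, -0.19 and 0.032 on the calorie-restricted arrays and -0.057, -0.075, 0.10, 0.19 and 0.25 on the control arrays, on the log2 scale. Calorie-restricted replicates 1 and 4 were the lowest and control replicates 4 and 5 the highest. In replicates 4 and 5 alone 25 of the 27 genes were lower in calorie restriction, with a median of -0.34, against -0.011 over all tested genes. With the covariate 21 of 27 were lower, with a median of -0.24 and with 50.3% of all genes lower.

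**Figure D5:**
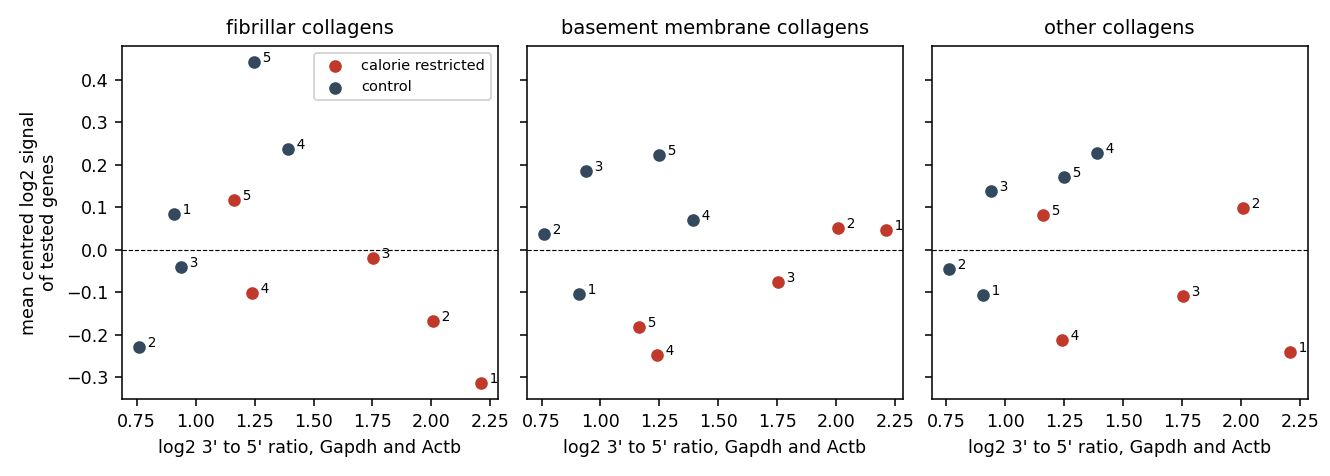
Mean log2 level of the tested genes of each collagen type per array, relative to each gene's mean over all arrays, against the log2 3' to 5' ratio of Gapdh and Actb on that array. Calorie-restricted replicates 4 and 5 have ratios of 1.24 and 1.16, near the 1.39 and 1.25 of control replicates 4 and 5, and lie below them on the collagen axis in each type.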

How the data were processed

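RNA of 10 kidneys, 5 per diet and 1 mouse per array, was measured. The labels' protocols name Trizol for total RNA and 5 ug of it as input to biotinylated cRNA. What the authors deposited is the linear MAS5 intensity of each probe set; the submitters' processing notes name Affymetrix Expression Console as the software, and give no version. In these deposited values the mean of every array, trimmed by 2% at both ends, was 500.003, so the arrays share a scale set by a trimmed mean, which leaves brightness-dependent differences between arrays. The mean without trimming was 786 to 831 on the calorie-restricted arrays and 755 to 768 on the control arrays, so it differed by diet. Detection calls were not used here, and the number of arrays limits the precision.

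Signals under 1 were set to 1, log2 was taken, and the 64 control probe sets were left out. Of 45101 probe sets, the annotation gives a single symbol to 34958, several to 932 and none to 9211, and only the first kind was named. All 82 collagen probe sets had a gene ID in the RefSeq gene table. The difference between the diets was tested in R 4.3.3 with limma 3.58.1 (lmFit, eBayes with an intensity trend, 2-sided, Benjamini-Hochberg), a script tested on simulated data. The p-values rest on the spread among the 10 mice.

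The collagen genes, the partner and marker lists and the alternatives were chosen with earlier results of these data known. Named genes are every collagen gene, up to 4 called genes of each partner list, and up to 2 with the smallest p given as values where none passed; other list genes named (Serpinh1, P4ha1, Hspg2 and Nid1) were chosen after their values were seen. Alternatives were no filter, a stricter one (top 30%), log2(signal + 50), median centring, quantile normalization, a robust eBayes or one with no trend, array weights, a replicate block, the RNA ratio as covariate, replicates 4 and 5 alone, averaging all probe sets of a gene and leaving out each array. The test of probe set pairs was added after the data were seen.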

Additional observations from a re-analysis of the deposited data

Results flagged for a closer look

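In 54 groups of 5 arrays, 1 for each diet of each of the 27 tested collagen genes, 3 held a single array far from the others, measured as its gap to the nearest other array over the range of the group. Chance flags about 1 in 20 groups, so 3 of 54 is about what chance gives. Col13a1 had a signal of 115 on control replicate 1, where the other control arrays had 178 to 208. Col6a1 had 687 on calorie-restricted replicate 4, where the other calorie-restricted arrays had 1096 to 1205. Col7a1 had 138 on control replicate 5, where the other control arrays had 175 to 188.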

How the results depend on the processing

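The counts of calls moved with most settings, and the cause was not tested. With no filter 287 probe sets passed, with 0 collagen genes, 0 of other types, 1 of synthesis, 0 receptors and 0 of degradation. With the stricter filter 1 collagen gene passed, 1 of other types and 2 basement membrane partners. Quantile normalization gave 764 probe sets, 1 collagen gene, 1 of other types and 2 partners, and turned Col15a1 to 0.044 and Col6a2 to 0.033. Median centring, which moved the median of all genes to -0.10, gave 4 collagen genes, 1 of type IV, 2 partners and 2 of degradation, and turned Col16a1 to -0.038 and Col4a6 to -0.050. Without the trend 243 probe sets passed, with 0 collagen genes, 0 of other types, 1 of synthesis, 0 receptors and 0 of degradation. Array weights gave 2292 probe sets, 2 partners and 3 of degradation, with Col15a1 at 0.012 and Col6a2 at 0.011. With all probe sets of a gene averaged 575 genes passed, with 0 collagen genes, 0 of other types and 2 partners, and Col12a1 turned to 0.080.

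With the covariate 9 probe sets passed, with 0 collagen genes, 0 of other types, 0 of synthesis, 0 receptors, 0 partners and 0 of degradation. The type IV median was then -0.30, and Col15a1 (0.017), Col4a6 (-0.14), Col5a1 (-0.028) and Col6a3 (0.0031) turned sign. Replicates 4 and 5 alone gave 198 probe sets, 1 type IV gene, 1 of other types, 0 of synthesis, 0 receptors and 0 partners. There the medians were -0.34 over all collagen genes, -0.35 fibrillar and -0.38 of other types, and Col16a1 (-0.0085), Col1a1 (-0.35), Col4a6 (-0.17) and Col5a1 (-0.083) turned sign. With log2(signal + 50) the paired probe sets of 1 gene differed. The replicate numbers did not pair the mice, with correlations of same-numbered arrays from -0.14 to -0.087 and 0 arrays closest to their own number. The replicate block left 127 probe sets, 0 collagen genes, 0 of other types, 1 of synthesis, 0 receptors and 0 of degradation.

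With 1 array left out, 125 to 2481 probe sets passed (125 without control replicate 2 and 2481 without calorie-restricted replicate 5), with 0 to 3 collagen genes, 0 to 2 fibrillar, 0 to 1 of type IV, 0 to 2 of other types, 0 to 6 of synthesis, 0 to 1 receptors, 1 partner each time, 0 to 3 of degradation and 0 to 5 differing probe set pairs. The medians ranged from -0.20 to -0.093 over all collagen genes, -0.16 to -0.074 fibrillar, -0.22 to -0.13 of type IV and -0.21 to -0.042 of other types. The 3' to 5' difference ranged from 0.49 to 0.75 and passed its exact permutation test in 4 of 10. Differences that turned sign in some of these fits ranged for Col15a1 from -0.088 to 0.077, Col6a2 from -0.14 to 0.098, Col16a1 from -0.0089 to 0.18, Col4a6 from -0.11 to 0.13, Col12a1 from -0.24 to 0.017, Col1a1 from -0.061 to 0.27 and for Col6a1 from -0.21 to 0.061. Of the recomputed differences of single genes, 512 kept direction and side of the threshold, 36 turned sign, 29 lost the call and 8 gained it. Signals near the array's median limit what can be seen of the dim collagen genes.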
